A study of Mus musculus with 22 samples.

Results

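The circadian clock genes were followed in bulk RNA sequencing of the mouse small intestine. The 10 genes were Arntl (also called Bmal1), Npas2, Per1, Per2, Per3, Cry1, Cry2, Nr1d1, Nr1d2 and Dbp, chosen by symbol and matched through their Ensembl identifiers, and they were 10 of the 54838 genes counted. The mice were FVB/N females of 8 to 14 weeks from intercrosses of GRDim/+ animals, and were wild type for the glucocorticoid receptor (GRWT) or homozygous for a point mutation, present in every cell, with which the receptor dimerises poorly (GRDim). Their drinking water was plain or held 25 mM ZnSO4 for 7 days, under 14 h of light and 10 h of dark. Of the 22 libraries, 5 came from GRWT mice on water, 5 from GRWT mice on zinc, 6 from GRDim mice on water and 6 from GRDim mice on zinc. The labels call 12 of them ileum, whole tissue kept in RNAlater, and 10 of them IEC, the scraped inner bowel of about 5 cm of distal ileum after lysis buffer. The hour at which tissue was taken is not given in the sources used here, and it bears on every level below, since these transcripts cycle over the day.

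The clock of a mammalian cell is a transcriptional loop. BMAL1, the product of Arntl, pairs with CLOCK or its homologue NPAS2 and drives genes through E-box sequences. Among those genes are the Per and Cry repressors, which feed back on the pair, and the nuclear receptors REV-ERB alpha and beta (Nr1d1 and Nr1d2), which repress Arntl through ROR elements (RORE). Dbp is an output factor that acts on D-box sequences, and it normally peaks in antiphase to Arntl. Glucocorticoids are a systemic time signal for peripheral clocks and induce Per1 and Per2 through the glucocorticoid receptor in many tissues.

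Promoter sequences carry the elements of this loop, and 5 of them are shown because Npas2 and Cry2 passed the tests below while Per1, Per3 and Cry1 hold the clock elements. They are upstream bases of RefSeq start sites on GRCm38.p6, the build of the counts, cut where GENCODE places an exon. The RefSeq promoter table had entries for 9 of the 10 genes, with 11 start sites among them, and Per2 is named only. Capitals mark matches, on either strand, to E-box CACGTG, E'-box CACGTT, D-box TTATGTAA and its variant TTATGCAA, RORE TAGGTCA and TGGGTCA, the palindromic glucocorticoid response element with its shorter site AGAACA, and the metal response element cores TGCACNC and TGCGCNC.
Npas2, chr1:39194022-39194211, plus strand: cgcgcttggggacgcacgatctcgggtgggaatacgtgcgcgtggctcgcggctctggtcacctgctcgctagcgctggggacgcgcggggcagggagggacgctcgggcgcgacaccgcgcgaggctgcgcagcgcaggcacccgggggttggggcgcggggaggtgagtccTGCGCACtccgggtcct
Per1, chr11:69098699-69098947, plus strand: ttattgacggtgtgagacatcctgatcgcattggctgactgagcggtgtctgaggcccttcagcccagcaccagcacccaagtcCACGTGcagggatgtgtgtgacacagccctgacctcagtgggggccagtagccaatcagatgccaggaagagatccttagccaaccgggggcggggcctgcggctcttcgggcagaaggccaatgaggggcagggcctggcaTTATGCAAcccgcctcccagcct
Per3, chr4:151044666-151044915, minus strand: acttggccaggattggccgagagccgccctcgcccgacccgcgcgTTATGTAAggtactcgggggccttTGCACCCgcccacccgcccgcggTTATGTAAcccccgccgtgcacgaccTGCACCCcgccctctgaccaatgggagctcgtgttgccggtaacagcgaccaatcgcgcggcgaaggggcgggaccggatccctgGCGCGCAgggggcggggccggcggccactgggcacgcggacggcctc
Cry1, chr10:85185065-85185304, minus strand: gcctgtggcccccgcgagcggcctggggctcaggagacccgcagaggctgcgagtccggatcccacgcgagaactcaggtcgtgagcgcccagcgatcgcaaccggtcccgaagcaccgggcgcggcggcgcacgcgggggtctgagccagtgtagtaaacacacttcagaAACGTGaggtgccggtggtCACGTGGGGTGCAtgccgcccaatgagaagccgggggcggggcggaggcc
Cry2, chr2:92434070-92434319, minus strand: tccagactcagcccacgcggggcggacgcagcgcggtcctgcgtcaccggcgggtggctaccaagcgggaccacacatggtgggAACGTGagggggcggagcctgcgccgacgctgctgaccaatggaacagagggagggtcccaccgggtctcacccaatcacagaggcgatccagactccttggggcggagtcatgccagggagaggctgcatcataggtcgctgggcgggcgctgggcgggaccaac
Arntl, RORE past its second start site, chr7:113207533-113207555, plus strand: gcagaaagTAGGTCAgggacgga

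The Per3 window held D-boxes at 205 and 158 bases before the start, a sequence found in 0.938% of all 32851 promoter windows of 300 bases. Per1 held an E-box and the D-box variant, found in 7.15% and 0.743% of windows. Cry1 held an E-box next to a metal response element core, and an E'-box further upstream. Cry2 and Nr1d1 each held an E'-box, found in 4.68% of windows. The RORE of Arntl lay in the transcribed bases, 31 bases past the second start, and 2.61% of windows hold that sequence. A metal response element core was matched in Npas2, Per1, Per3, Cry1, Nr1d1 and Dbp, which is common, with 12.6% of windows holding TGCACNC and 15.4% holding TGCGCNC. The site AGAACA, in 19% of windows, and the full glucocorticoid response element, in 0.00913%, were matched in none of the windows of these genes. A match is a run of letters and no evidence of binding.

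Tissue labels did not follow the cell content of the libraries. Myh11, the smooth muscle myosin heavy chain, stood at 298 to 463 CPM (read counts scaled to library size) in 12 libraries and at 3.22 to 20.5 CPM in the other 10, and a line at 100 CPM was used to call them muscle-rich and muscle-poor. The summed level of the 10 smooth muscle markers was 1549 to 2527 CPM in muscle-rich and 196 to 331 CPM in muscle-poor libraries, and fibroblast, enteric neuron and glia markers were likewise higher on the muscle-rich side. The 6 leukocyte markers summed to 1180 to 4884 CPM in muscle-rich and 80.5 to 192 CPM in muscle-poor libraries, with 4 of 6 called higher and 1 lower. The 10 epithelial markers were present on both sides, at 20136 to 24734 CPM and 30707 to 46469 CPM. Of the muscle-rich libraries 5 were labelled ileum and 7 IEC, and of the muscle-poor libraries 7 and 3. All 3 GRDim water libraries on the muscle-rich side were labelled IEC and all 3 GRDim zinc libraries ileum, with the reverse on the muscle-poor side, so for GRDim the tissue label and zinc cannot be told apart within a side. Library totals were 13149951 to 15620744 counts, at which 3 counts are 0.192 to 0.228 CPM, a floor that covers counting error only.

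A pair of libraries stood apart. In the muscle-poor library GRWT zinc ileum replicate 3, the ileal bile acid binding protein gene Fabp6 was at 18.2 CPM against 8490 to 11571 CPM in the other 9 muscle-poor libraries. It differed from its only muscle-poor partner by a chi-square of 273 per gene, against at most 24.3 between other libraries of a condition and side. In the muscle-rich library GRWT water ileum replicate 1, Nr1d1, Nr1d2 and Dbp were well above its partners, as given below. It was set apart by these genes, while its chi-square per gene against its partners was 9.02 and 11.2. Calls of these genes without it follow in part from that choice. Values without either library are given beside the main comparisons. Levels are CPM after TMM normalisation, and a gene was called at a Benjamini-Hochberg adjusted p under 0.05 over all genes tested in edgeR's quasi-likelihood test. Replicates carry no statement that they are separate animals, so p-values measure the spread between these samples. All 10 clock genes passed the filter on low counts on both sides, and the lowest value was 14 counts, for Dbp in a muscle-rich library.

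All clock genes differed by muscle content. With condition held in the fit, all 10 genes were called, 3 higher and 7 lower in muscle-rich libraries. Of all 16389 genes tested 62.4% were called, 32.7% higher and 29.7% lower. Arntl, Npas2 and Cry1 were higher, and Dbp, Per3, Nr1d2, Nr1d1, Per2, Per1 and Cry2 were lower. The same 3 and 7 genes were called without either library that stood apart. The part of the muscle, fibroblast, neuron, leukocyte and epithelial markers that separate the sides was not tested. In bulk tissue, fewer cells of a type and less RNA per cell cannot be told apart.

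**Figure D1:**
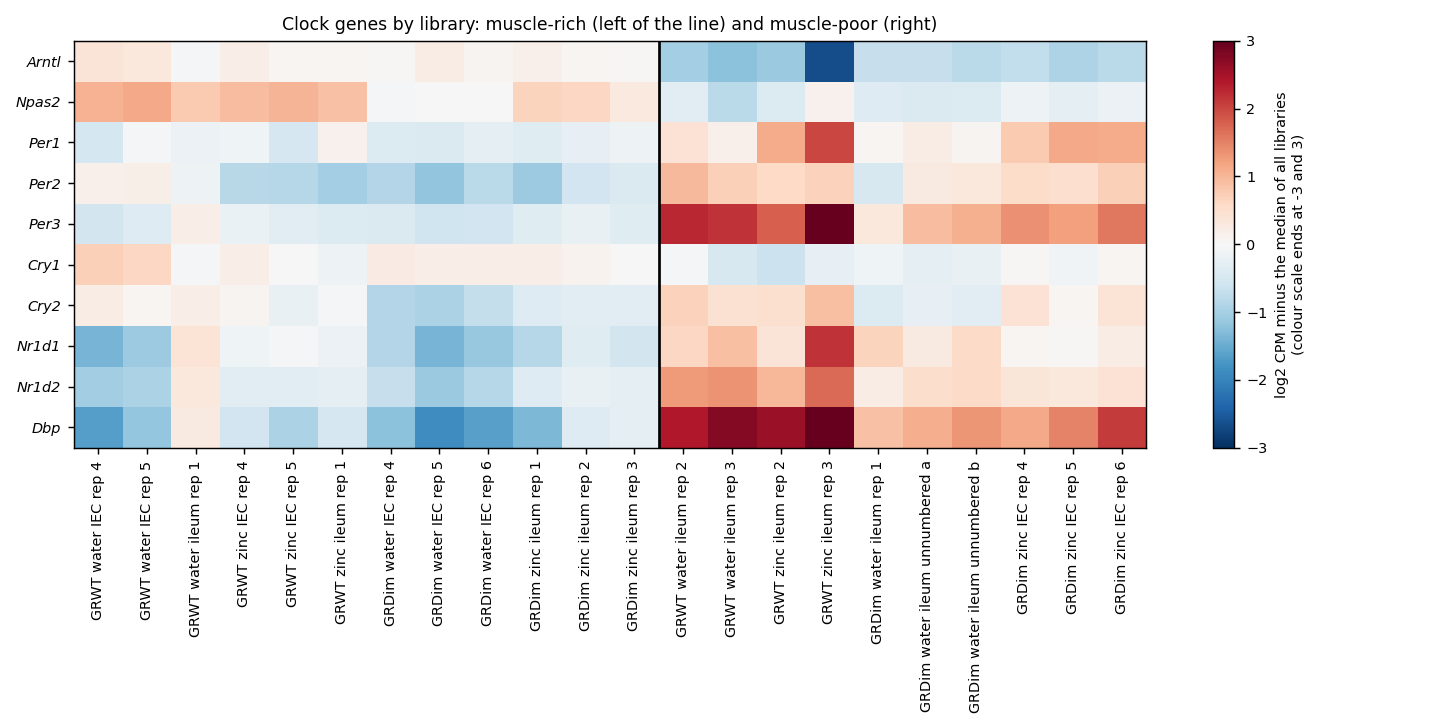
Log2 CPM of each clock gene in each of the 22 libraries, as the difference from that gene's median over all libraries. Red is higher and blue lower, with the scale ending at -3 and 3, and the black line parts 12 muscle-rich from 10 muscle-poor libraries. Dbp and Per3 are higher in muscle-poor libraries, Arntl is lower there, and GRWT zinc ileum replicate 3 has the lowest Arntl at 8.95 CPM.

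Dbp, the D-box output factor, had the largest contrast. It ran from 0.923 to 4.55 CPM with a median of 1.72 in muscle-rich libraries and from 6.95 to 121 CPM with a median of 13.5 in muscle-poor ones, with no overlap, and the difference was -3.33 ± 0.36 log2 units (SE, edgeR adjusted p = 1.08e-07). Without GRWT zinc ileum replicate 3 it was -2.88 ± 0.22 (edgeR adjusted p = 5.44e-10). Per3, a period protein gene, ran from 3.63 to 6.38 CPM (median 4.25) against 6.95 to 45.4 CPM (median 15.6), also without overlap, at -2.08 ± 0.18 log2 units (edgeR adjusted p = 2.31e-09). Arntl moved the other way. It lay between 56.7 and 75.5 CPM (median 60.6) in muscle-rich libraries and between 8.95 and 35.8 CPM (median 31.5) in muscle-poor ones, again with no overlap, at 1.17 ± 0.14 log2 units (edgeR adjusted p = 3.87e-07).

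For the remaining genes the ranges of both sides overlapped. Npas2 was higher by 0.89 ± 0.12 and Cry1 by 0.41 ± 0.09 log2 units in muscle-rich libraries. The differences for the lower genes were -1.32 ± 0.16 for Nr1d2, -1.29 ± 0.22 for Nr1d1, -1.16 ± 0.11 for Per2, -1.03 ± 0.15 for Per1 and -0.60 ± 0.07 for Cry2, with edgeR adjusted p from 7.65e-09 for Per2 to 0.0007 for Cry1 over these 7 genes. Among 14 tested of 15 other clock components, 4 were higher and 7 lower. Bhlhe41 (3.22 ± 0.36 log2 units), a repressor also called DEC2, and Rora (1.65 ± 0.13), the activator at RORE, were higher. Tef (-2.35 ± 0.17), a relative of DBP, and Ciart (-1.99 ± 0.25), a repressor of CLOCK and BMAL1, were lower. Of the 8 cycling genes Tspan4 (1.24 ± 0.14) was higher and 4 were lower, among them Usp2 (-1.24 ± 0.14), a deubiquitinase gene, and of the 8 receptor targets 2 were higher and 3 lower.

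Levels of different genes were compared as CPM per kilobase of exon. In muscle-rich libraries the order of the mean levels was Npas2 at 12.3 ± 3.47 (SD, n = 12), Cry1 at 9.90 ± 1.90, Nr1d1 at 9.76 ± 4.10, Arntl at 8.43 ± 0.76, Nr1d2 at 7.33 ± 2.19, Per2 at 3.40 ± 1.21, Cry2 at 2.07 ± 0.55, Per1 at 1.77 ± 0.25, Dbp at 0.69 ± 0.35 and Per3 at 0.45 ± 0.077 CPM per kb. Only the steps from Nr1d2 to Per2 and from Per1 to Dbp were larger than the summed SDs of the neighbours. In muscle-poor libraries the repressors Nr1d1 at 23.5 ± 14.5 (SD, n = 10) and Nr1d2 at 18.3 ± 7.14 CPM per kb led and Per3 at 1.99 ± 1.16 was last. There the step from Npas2 at 6.24 ± 1.05 to Arntl at 3.86 ± 1.07 CPM per kb alone exceeded the summed SDs.

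**Figure D2:**
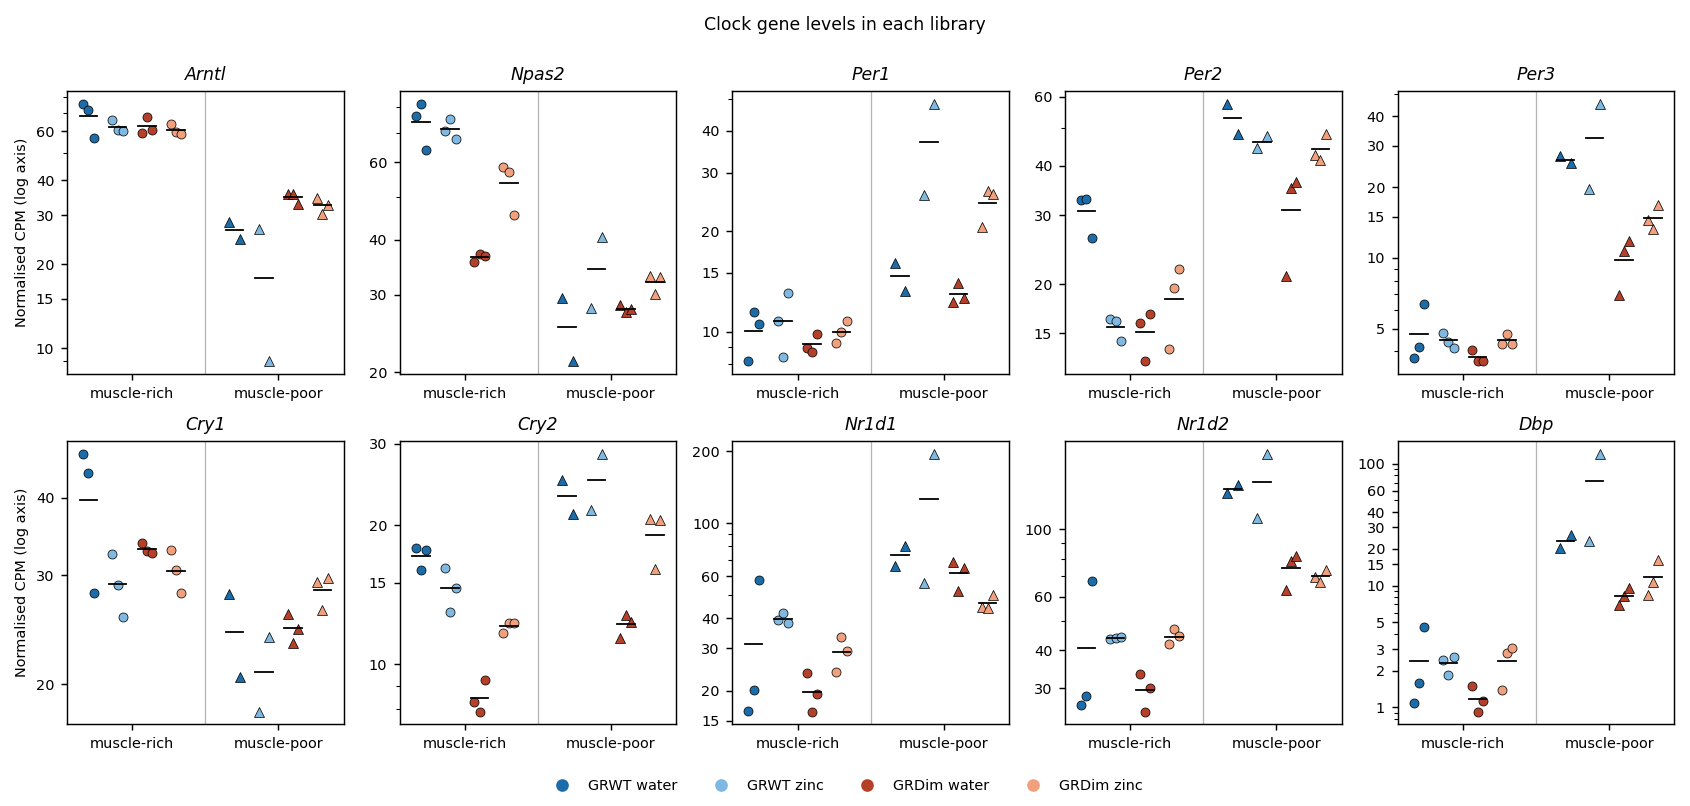
Normalised CPM of each clock gene on a log axis, with 1 point per library (circles muscle-rich, triangles muscle-poor), colours for the 4 conditions and a black line at each mean. In muscle-rich libraries Cry2 lies between 7.91 and 9.25 CPM in GRDim mice on water, below the 16 to 17.8 CPM of GRWT mice on water.

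The first question was how clock genes differed with the receptor mutation in mice on water. In muscle-rich libraries Npas2, Per2 and Cry2 fell in GRDim mice by close to 1 log2 unit, and 3 of 10 genes were called, all lower. Of the 15947 genes tested 38.7% were called, 19.7% higher and 18.9% lower. Over both directions together, clock genes were thus called no more often than genes at large.

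Npas2 (chr1:39193731-39363236, plus strand), the partner of BMAL1, read 76.7, 81.7 and 64.0 CPM in the 3 GRWT libraries and 35.7, 37.2 and 36.7 CPM in the 3 GRDim libraries. The groups did not overlap, and the difference was -1.01 ± 0.10 log2 units (edgeR adjusted p = 7.96e-06). Per2 (chr1:91415982-91459324, minus strand), a period repressor, read 32.8, 33.0 and 26.2 CPM in GRWT and 15.9, 12.7 and 16.8 CPM in GRDim, without overlap, at -1.001 ± 0.15 log2 units (edgeR adjusted p = 0.000251). Cry2 (chr2:92403646-92434043, minus strand), a cryptochrome repressor, read 17.8, 16 and 17.7 CPM in GRWT and 8.29, 7.91 and 9.25 CPM in GRDim, without overlap, at -1.003 ± 0.10 log2 units (edgeR adjusted p = 2.77e-06). Exons of Cry2 overlap D930015M05Rik on the other strand over 295 bases, and the strand setting of the counting is not given in the sources used here.

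Per1, Per3, Cry1, Arntl, Nr1d1, Nr1d2 and Dbp were not called in this comparison. For Dbp the estimate was -1.01 ± 0.50 log2 units (edgeR adjusted p = 0.138), with 1.08, 1.58 and 4.55 CPM in GRWT and 1.5, 0.923 and 1.12 CPM in GRDim. The value of 4.55 CPM belonged to GRWT water ileum replicate 1, which also read 57.8 CPM for Nr1d1 against 16.4 and 20.1 CPM in its partners and 67.5 CPM for Nr1d2 against 26.5 and 28.3 CPM. Without that library the estimate was -0.15 ± 0.36 log2 units for Dbp and 0.13 ± 0.17 for Nr1d1, which had been -0.66 with it, and neither was called. Cry1 (-0.44 ± 0.09 log2 units, edgeR adjusted p = 0.00227) and Arntl (-0.22 ± 0.07, edgeR adjusted p = 0.0261) were then called lower as well, making 5 genes against 15.9% of genes called lower.

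Markers of other cells moved with genotype in these libraries. The 6 leukocyte markers summed to 3968 to 4884 CPM in GRDim mice on water and 1491 to 1915 CPM in GRWT mice on water, and 4 of 6 were called higher, with none at 0 in any library. The 10 smooth muscle markers summed to 1756 to 1986 against 2308 to 2527 CPM, with 6 of 10 called lower. The 3 ileal segment markers summed to 4804 to 6124 against 7832 to 9503 CPM, with 2 of 3 called lower, and the 6 enteric neuron and glia markers to 10.31 to 12.96 against 18.01 to 20.72 CPM, with 3 of 6 called lower. Of the 10 epithelial markers 4 were called higher and 3 lower, at sums of 20136 to 21531 against 22571 to 23521 CPM. The part of these markers in the lower clock gene levels was not tested. Within the muscle-rich side the GRDim libraries on water were all labelled IEC and those of GRWT 2 IEC and 1 ileum, and without the library labelled ileum the call held for Npas2, Per2 and Cry2.

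Other genes of the clock and of the receptor changed in the same comparison. Of 13 tested of 15 other clock components, 4 were higher and 5 lower, with a median of -0.11 log2 units against -0.0028 over all genes. Bhlhe41 (1.28 ± 0.46 log2 units), Hlf (0.73 ± 0.22), a relative of DBP, and Rora (0.67 ± 0.19) rose, and Bhlhe40 (-0.69 ± 0.07), also called DEC1, fell. Of 8 genes that cycle in many mouse organs, Nampt (0.73 ± 0.06), of NAD synthesis, rose, and Tsc22d3 (-0.63 ± 0.10), Klf10 (-0.37 ± 0.10) and Por (-0.26 ± 0.08) fell. Of 8 glucocorticoid receptor targets, 7 fell and none rose, with a median of -0.50 log2 units. The kinase gene Sgk1 (-1.964 ± 0.22 log2 units), the zinc finger gene Zbtb16 (-0.84 ± 0.31), Errfi1 (-0.54 ± 0.12) and the phosphatase gene Dusp1 (-0.46 ± 0.14) were among them, each with an edgeR adjusted p under the threshold.

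In mice on zinc the genotype difference on the muscle-rich side was smaller in number. Npas2 alone was called, 1 of 10 genes where 18.8% of genes were called, 9.81% higher and the remaining 1435 of 15947 lower. It read 58.7, 57.0 and 45.6 CPM in GRDim and 70.9, 75.5 and 67.9 CPM in GRWT. The groups did not overlap, and the difference was -0.42 ± 0.10 log2 units (edgeR adjusted p = 0.0104), not called in 1 fit of all libraries with a mean per condition and side (edgeR adjusted p = 0.0874). The GRDim libraries were all labelled ileum here, and those of GRWT 1 ileum and 2 IEC. Cry2 read 11.7, 12.3 and 12.3 CPM in GRDim and 16.1, 13 and 14.6 CPM in GRWT, at -0.29 ± 0.10 log2 units (edgeR adjusted p = 0.0507). Per2 was at 0.22 ± 0.16 log2 units (edgeR adjusted p = 0.363) with overlapping groups. Among other clock components Hlf (0.78 ± 0.22 log2 units) was higher and Bhlhe40 (-0.29 ± 0.07) was lower in GRDim. Of the 8 cycling genes Nampt (0.55 ± 0.06) was higher and Klf10 (-0.38 ± 0.10) and Por (-0.29 ± 0.08) were lower, and of the 8 receptor targets Ddit4 (-0.42 ± 0.10) alone was called. Leukocyte markers remained apart, at 3565 to 4502 CPM in GRDim and 1180 to 2018 CPM in GRWT, with 3 of 6 called higher. Of the other lists 4 epithelial markers were called higher and 1 lower of 10, 2 of 6 enteric neuron and glia markers lower and 1 of 10 smooth muscle markers lower, and their part was not tested. Without GRWT water ileum replicate 1, which is in neither group but shares the fit, 2 genes were called where 19.7% of all genes were, Npas2 and Nr1d1 (-0.49 ± 0.14 log2 units, edgeR adjusted p = 0.035). Without GRWT zinc IEC replicate 5 the number was also 2, with the share of all genes not given here.

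**Figure D3:**
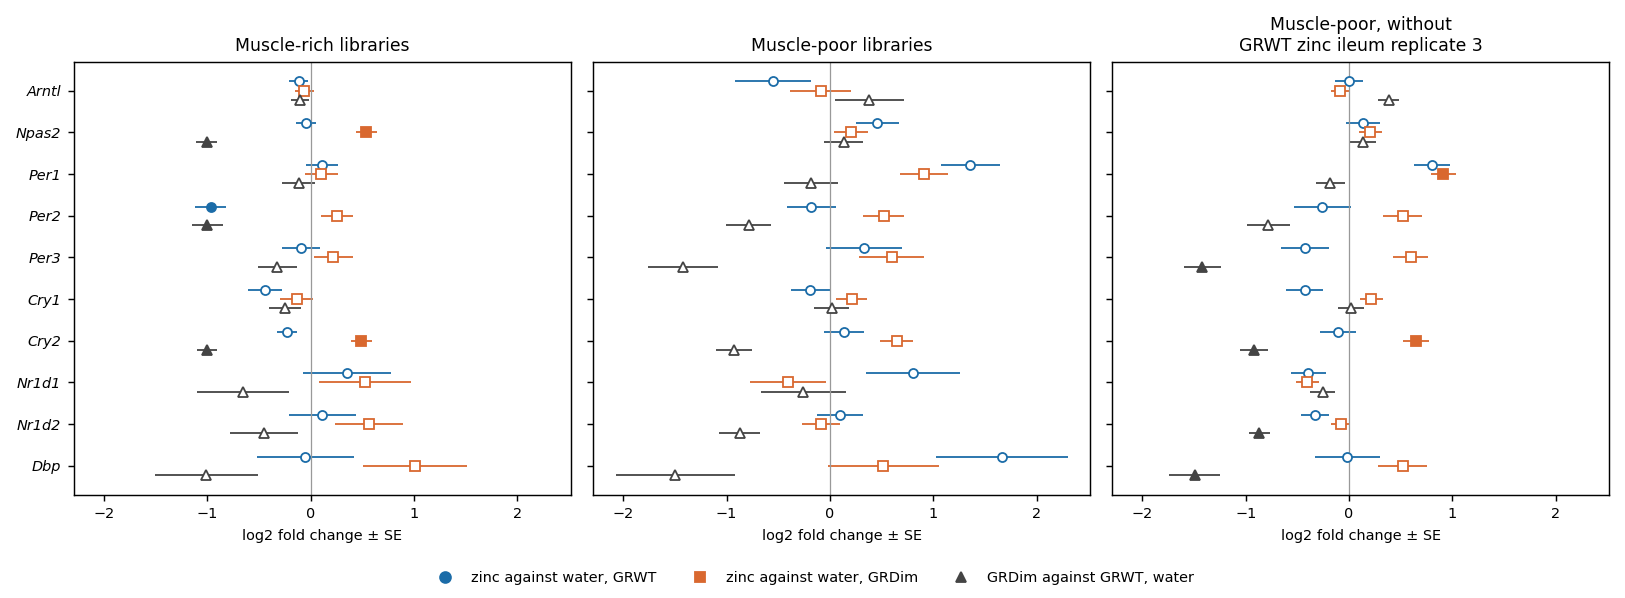
Log2 fold change with its SE for each clock gene, for zinc against water in GRWT (circles) and GRDim (squares) and for GRDim against GRWT on water (triangles). Filled symbols were called at an edgeR adjusted p under 0.05. In muscle-rich libraries Per2 in GRWT is filled at -0.97, and in muscle-poor libraries no symbol is filled until GRWT zinc ileum replicate 3 is left out.

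The second question was what zinc did in each genotype. In muscle-rich libraries of GRWT mice, Per2 was the single clock gene called, 1 of 10 where 0.383% of genes (61 of 15947) were called, 0.232% higher and 0.150% lower. It read 32.8, 33.0 and 26.2 CPM on water and 16.3, 16.1 and 14.4 CPM on zinc. The groups did not overlap, and Per2 fell by 0.97 ± 0.15 log2 units (edgeR adjusted p = 0.0182). The other 9 genes ranged from -0.44 ± 0.16 for Cry1 to 0.35 ± 0.43 for Nr1d1, none called. Smooth muscle markers summed to 1678 to 2212 CPM on zinc and 2308 to 2527 CPM on water, with 9 of 10 at an unadjusted p under 0.05 in edgeR and none called. The 6 fibroblast markers summed to 593 to 816 and 728 to 985 CPM, with 3 of 6 at such a p and none called, and the part of both was not tested. The call for Per2 was lost when any 1 of GRWT water IEC replicates 4 and 5 or the 3 GRWT zinc libraries was left out, with edgeR adjusted p up to 0.104 and values from -1.07 to -0.91 log2 units over all libraries left out in turn. In 1 fit of all libraries with a mean per condition and side it was not called either (-0.97, edgeR adjusted p = 0.063).

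The calls of several other genes changed without GRWT water ileum replicate 1, which was set apart by its Nr1d1, Nr1d2 and Dbp values. Calls of Nr1d1 and Nr1d2 without it are a description and no separate test. Without it, 4 genes were called, where 0.945% of genes were. Nr1d1 rose by 1.14 ± 0.17 log2 units (edgeR adjusted p = 0.0115) and Nr1d2 rose by 0.69 ± 0.10 (edgeR adjusted p = 0.00472). Cry1 (-0.64 ± 0.09, edgeR adjusted p = 0.00539) and Per2 (-1.07 ± 0.16, edgeR adjusted p = 0.00994) fell. The Nr1d2 readings show the pattern, at 26.5, 28.3 and 67.5 CPM on water, the last being that library, and 43.5, 44.0 and 44.2 CPM on zinc. The control group then held 2 libraries. Exons of Nr1d1 overlap Thra on the other strand over 263 bases.

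In GRDim mice on the muscle-rich side Npas2 and Cry2 were higher in the zinc libraries, all labelled ileum, than in the water libraries, all labelled IEC, 2 of 10 genes where 7.70% of genes were called, 4.46% higher and 3.24% lower. Npas2 read 35.7, 37.2 and 36.7 CPM on water and 58.7, 57.0 and 45.6 CPM on zinc, without overlap, at 0.54 ± 0.10 log2 units (edgeR adjusted p = 0.00791). Cry2 read 8.29, 7.91 and 9.25 CPM on water and 11.7, 12.3 and 12.3 CPM on zinc, without overlap, at 0.49 ± 0.10 log2 units (edgeR adjusted p = 0.00948). The zinc libraries of both genes stayed below each GRWT library on water. In 1 fit of all libraries with a mean per condition and side neither gene was called, at 0.56 log2 units for Npas2 (edgeR adjusted p = 0.0834) and 0.51 for Cry2 (edgeR adjusted p = 0.101). Leaving out GRDim water IEC replicate 5 ended the call for Cry2 (edgeR adjusted p = 0.0523). Nr1d2 was called too without GRWT water ileum replicate 1, at 0.56 ± 0.09 log2 units (edgeR adjusted p = 0.00142).

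Dbp read 1.5, 0.923 and 1.12 CPM on water and 1.39, 2.80 and 3.05 CPM on zinc in these GRDim libraries, with overlap, at 1.01 ± 0.50 log2 units (edgeR adjusted p = 0.267). Per2 was at 0.26 ± 0.16 log2 units (edgeR adjusted p = 0.369). Among other clock components Bhlhe40 (0.39 ± 0.07 log2 units) rose, and none of the 8 cycling genes was called. Among receptor targets Sgk1 (1.62 ± 0.22) and Errfi1 (0.56 ± 0.12) rose, 2 of 8. Of the leukocyte markers 1 of 6 was called, Cd8a, at -0.61 log2 units (edgeR adjusted p = 0.0128). The 10 epithelial markers summed to 23478 to 24708 CPM on zinc and 20136 to 21531 CPM on water, without overlap, and 1 of them was called, Fabp2, at 0.97 log2 units (edgeR adjusted p = 0.000635). Of the 3 ileal segment markers 1 was called, Slc10a2, at 0.57 log2 units (edgeR adjusted p = 0.00571). The part of these markers in the Npas2 and Cry2 levels was not tested, and zinc and the tissue label cannot be told apart here. In GRWT mice no other clock component, cycling gene or receptor target was called for zinc on the muscle-rich side, with 0, 1 and 0 genes at an unadjusted p under 0.05 in edgeR.

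The third question was whether zinc acted differently in the genotypes, tested as the zinc by genotype interaction. On the muscle-rich side 2 of 10 genes were called, both positive, where 0.263% of genes (42 of 15947) were called, 0.226% higher and 0.0376% lower. Per2 had an interaction of 1.22 ± 0.22 log2 units (edgeR adjusted p = 0.045), from zinc estimates of -0.97 ± 0.15 in GRWT and 0.26 ± 0.16 in GRDim. Cry2 had an interaction of 0.72 ± 0.14 log2 units (edgeR adjusted p = 0.045), from estimates of -0.23 ± 0.09 in GRWT and 0.49 ± 0.10 in GRDim. Npas2 was at 0.58 ± 0.14 log2 units (edgeR adjusted p = 0.0902), and Dbp at 1.06 ± 0.69 (edgeR adjusted p = 0.488), or 0.20 ± 0.46 without GRWT water ileum replicate 1. None of the other clock components, cycling genes or receptor targets was called, with 3, 1 and 2 at an unadjusted p under 0.05 in edgeR.

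Both interaction calls lay close to the threshold. Leaving out each of the 12 libraries in turn ended the call for Per2 in 9 fits (edgeR adjusted p up to 0.131) and for Cry2 in 10 fits (up to 0.14), with values of 1.09 to 1.39 and 0.65 to 0.79 log2 units, and the number of genes called ran from 0 to 3. In 1 fit of all libraries with a mean per condition and side the values were 1.25 log2 units for Per2 (edgeR adjusted p = 0.541) and 0.74 for Cry2 (edgeR adjusted p = 0.598). That fit also held GRWT zinc ileum replicate 3 in its estimate of the spread. Without GRWT water ileum replicate 1, Per2 was still called (1.32 ± 0.22, edgeR adjusted p = 0.0421) and Cry2 was not (0.69 ± 0.15, edgeR adjusted p = 0.0772).

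In muscle-poor libraries none of the 10 clock genes was called for zinc in GRWT, zinc in GRDim, genotype on water or genotype on zinc, where 0.0431%, 0.0575%, 0.0288% and 0.0575% of the 13908 genes tested were called. For zinc in GRWT these were 0.0360% higher and 0.00719% lower. None was called for the interaction either, where 0% of genes were. At an unadjusted p under 0.05 in edgeR, 2, 3, 5, 8 and 0 clock genes passed in these 5 comparisons, as did 2378, 1098, 783, 3184 and 648 of all 13908 genes. DESeq2 called 1, 0, 2, 4 and 0 clock genes, and 491, 102, 62, 948 and 3 of all genes. With 1 fit of all libraries and a mean per condition and side, 1, 2, 2 and 5 clock genes were called in the first 4 comparisons. The share of all genes in that fit is not given here. GRWT zinc had 2 libraries here, and they read 23.0 and 121 CPM for Dbp, 56.2 and 195 CPM for Nr1d1, 25.7 and 48.4 CPM for Per1 and 26.7 and 8.95 CPM for Arntl, the second value of each being GRWT zinc ileum replicate 3. All comparisons on this side share that spread in 1 fit.

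Without GRWT zinc ileum replicate 3, genes were called on this side, with GRWT zinc left as 1 library that is assumed to vary like the other groups. For genotype on water, 4 of 10 genes were called, all lower in GRDim, where 3.16% of genes were called. Dbp read 20.2 and 26.0 CPM in GRWT and 6.95, 8.16 and 9.61 CPM in GRDim, without overlap, at -1.49 ± 0.25 log2 units (edgeR adjusted p = 0.0143). Exons of Dbp overlap Sphk2 on the other strand over 539 bases. Per3 read 27.2 and 25.3 CPM in GRWT and 6.95, 10.7 and 11.8 CPM in GRDim, without overlap, at -1.42 ± 0.18 log2 units (edgeR adjusted p = 0.00174). Cry2 read 25.0 and 21.2 CPM in GRWT and 11.4, 12.8 and 12.4 CPM in GRDim, without overlap, at -0.92 ± 0.13 log2 units (edgeR adjusted p = 0.00336). Nr1d2 read 132 and 139 CPM in GRWT and 63.2, 78.7 and 81.6 CPM in GRDim, without overlap, at -0.87 ± 0.10 log2 units (edgeR adjusted p = 0.00105).

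Per2 read 57.6 and 48.1 CPM in GRWT and 21, 35.1 and 36.4 CPM in GRDim on this side, without overlap, and was not called with the library (-0.78 ± 0.22 log2 units, edgeR adjusted p = 0.591). Npas2, which fell in GRDim on the muscle-rich side, was at 0.13 ± 0.19 log2 units (edgeR adjusted p = 0.991) with overlapping groups. Leukocyte markers summed to 156 to 192 CPM in GRDim and 108 to 145 CPM in GRWT on this side, and all muscle-poor libraries on water were labelled ileum. Ileal segment markers summed to 9589 to 10736 against 12785 to 13077 CPM, and epithelial markers to 30707 to 32287 against 34085 to 34873 CPM. Sums of smooth muscle, fibroblast and enteric neuron and glia markers overlapped. No marker was called with all muscle-poor libraries, and their part was not tested.

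For zinc in GRDim without that library, Per1 and Cry2 were called on the muscle-poor side, 2 of 10 genes where 5.15% of genes were. Per1, a period gene that glucocorticoids induce, read 12.3, 14 and 12.6 CPM on water and 20.6, 26.4 and 26.0 CPM on zinc, without overlap, and rose by 0.91 ± 0.12 log2 units (edgeR adjusted p = 0.0016). Cry2 read 11.4, 12.8 and 12.4 CPM on water and 20.7, 16.1 and 20.5 CPM on zinc, without overlap, and rose by 0.65 ± 0.12 log2 units (edgeR adjusted p = 0.0115). The 6 leukocyte markers summed to 89.9 to 148 CPM on zinc and 156 to 192 CPM on water in these libraries, without overlap and with none called, and their part was not tested. The zinc libraries were labelled IEC and the water libraries ileum. Per1 in GRWT read 16.1 and 13.2 CPM on water and 25.7 CPM in the zinc library that was kept, and no clock gene was called for zinc in GRWT, for genotype on zinc or for the interaction in that fit. Leaving out its partner GRWT zinc ileum replicate 2 instead left the library that stood apart as the whole group, and 7 clock genes were then called for zinc in GRWT, 7 for genotype on zinc and 5 for the interaction, where 7080, 7491 and 5702 of all 14492 genes tested were called.

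Whether zinc effects differed between the sides was tested in a fit of all 22 libraries with a mean per condition and side. None of the 10 clock genes was called in GRWT, where 0.0183% of 16389 genes were (0.00610% higher), or in GRDim, where 0% were. At an unadjusted p under 0.05 in edgeR, 3 and 1 clock genes passed, as did 2780 and 596 of all 16389 genes, and DESeq2 called 1 and 0 clock genes and 474 and 2 of all genes. For Per1 the muscle-rich minus muscle-poor difference of the zinc effect was -1.23 ± 0.32 log2 units in GRWT (edgeR adjusted p = 0.129), or -0.67 ± 0.26 without GRWT zinc ileum replicate 3 (edgeR adjusted p = 0.529), and -0.78 ± 0.29 in GRDim (edgeR adjusted p = 1). For Per2 it was -0.77 ± 0.29 in GRWT (edgeR adjusted p = 0.2). With GRWT zinc ileum replicate 2 left out, 6 clock genes were called in GRWT, where 6696 of all 16959 genes were.

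In a fit of all libraries with the side as an additive term, Cry2 was called in more comparisons than any other clock gene. For genotype on water, Cry2 (-0.99 ± 0.10 log2 units, edgeR adjusted p = 9.2e-06), Per2 (-0.94 ± 0.15, edgeR adjusted p = 0.000645), Per3 (-0.87 ± 0.26, edgeR adjusted p = 0.0258) and Npas2 (-0.53 ± 0.16, edgeR adjusted p = 0.031) were lower in GRDim, 4 of 10 genes where 16.2% of genes were called, 8.02% higher and 8.19% lower. Without GRWT zinc ileum replicate 3, Nr1d2 and Dbp were called lower too, where 31.1% of genes were called and 15.1% lower, and without GRWT water ileum replicate 1 only Per2 and Cry2 were, where 8.53% were called and 4.74% lower. Leaving out each of the 22 libraries in turn ended the call for Npas2 in 6 fits and for Per3 in 4. For zinc in GRDim, Cry2 rose by 0.58 ± 0.09 log2 units (edgeR adjusted p = 0.00303), 1 of 10 where 1.65% of genes were called and 1.10% were higher, and without GRWT zinc ileum replicate 3 Per1 was called as well (0.53 ± 0.15, edgeR adjusted p = 0.0238), where 10.2% of genes were called and 5.95% higher. For genotype on zinc, Cry2 was at -0.32 ± 0.10 log2 units (edgeR adjusted p = 0.0412), 1 of 10 where 10.5% were called, 4.71% higher and 5.75% lower, and that call was lost in 14 of the 22 fits that left out 1 library, with edgeR adjusted p up to 0.115.

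No clock gene was called across all libraries for zinc in GRWT, where 0.293% of genes were (0.232% higher and 0.0610% lower), or for the interaction, where 0% of genes were. At an unadjusted p under 0.05 in edgeR, 3 clock genes passed in each, as did 2529 and 1227 of all 16389 genes, and DESeq2 called 1 and 0 clock genes and 291 and 3 of all genes. For the interaction these included Per2 at 1.05 ± 0.22 and Cry2 at 0.67 ± 0.14 log2 units (edgeR adjusted p = 0.46 for both). Without GRWT zinc ileum replicate 3 the interaction of Cry2 was called, at 0.76 ± 0.12 log2 units (edgeR adjusted p = 0.0259), where 0.0119% of genes (2 of 16868) were called.

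Within each side, Arntl was compared with the other 9 genes across libraries, as log2 CPM, in 18 relations. These pool the 4 conditions, and libraries of a condition share genotype, water and label. In the 10 muscle-poor libraries Dbp ran opposite to Arntl, with Pearson's r = -0.95 (permutation p = 0.0001, adjusted 0.0018) and Spearman's rho = -0.99 (permutation p = 4e-05, adjusted 0.00072). Without the 2 libraries farthest from the median of Arntl, GRWT zinc ileum replicate 3 and GRWT water ileum replicate 3, r was -0.89 (permutation p = 0.00472). Per3 had r = -0.81 (permutation p = 0.00025, adjusted 0.00225; rho = -0.90, permutation p = 0.00099, adjusted 0.00891) and Nr1d2 r = -0.80 (permutation p = 0.00044, adjusted 0.00264; rho = -0.81, permutation p = 0.00735, adjusted 0.0243). Without those libraries r was -0.78 (permutation p = 0.0201) and -0.75 (permutation p = 0.0306). Cry2 had r = -0.65 (permutation p = 0.00821, adjusted 0.0246; rho = -0.84, permutation p = 0.00382, adjusted 0.0172), and -0.66 (permutation p = 0.081) without them. Nr1d1 had r = -0.91 (permutation p = 0.0116, adjusted 0.0298; rho = -0.42, permutation p = 0.233, adjusted 0.322), which became -0.07 (permutation p = 0.857) and so rested on those libraries.

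In the 12 muscle-rich libraries the relations of Dbp, Nr1d2, Nr1d1 and Per3 were again negative, Per3 at r = -0.49 (permutation p = 0.108). Cry2, negative in muscle-poor libraries, was not, at r = 0.25 (permutation p = 0.425). Nr1d2 had r = -0.73 (permutation p = 0.00666, adjusted 0.024; rho = -0.82, permutation p = 0.00203, adjusted 0.0122), and r = -0.60 (permutation p = 0.0667) without GRWT water IEC replicates 4 and 5, the 2 farthest from the median of Arntl. Nr1d1 had r = -0.66 (permutation p = 0.0195, adjusted 0.0439; rho = -0.60, permutation p = 0.0425, adjusted 0.0851), and -0.50 (permutation p = 0.139) without them. Dbp had r = -0.62 (permutation p = 0.0313, adjusted 0.0601; rho = -0.74, permutation p = 0.00809, adjusted 0.0243), and -0.62 (permutation p = 0.0586) without them. Cry1 ran with Arntl at r = 0.87 (permutation p = 0.00069, adjusted 0.0031; rho = 0.70, permutation p = 0.014, adjusted 0.0361), and r = 0.53 (permutation p = 0.116) without them. None of the relations of Nr1d2, Nr1d1, Dbp and Cry1 passed 0.05 in the 10 libraries that were left. The r of Dbp hardly moved, and those of Nr1d2, Nr1d1 and Cry1 became weaker. Adjusted over the 18 relations, 8 passed by Pearson's r with all libraries and 0 on either side without the 2 farthest. Per2 changed sign, from r = 0.38 (permutation p = 0.218) to -0.76 (permutation p = 0.0122). Exons of Arntl overlap Gm45355 on the other strand over 33 bases. Over both sides together no coefficient is given, since the sides form separate clusters.

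**Figure D4:**
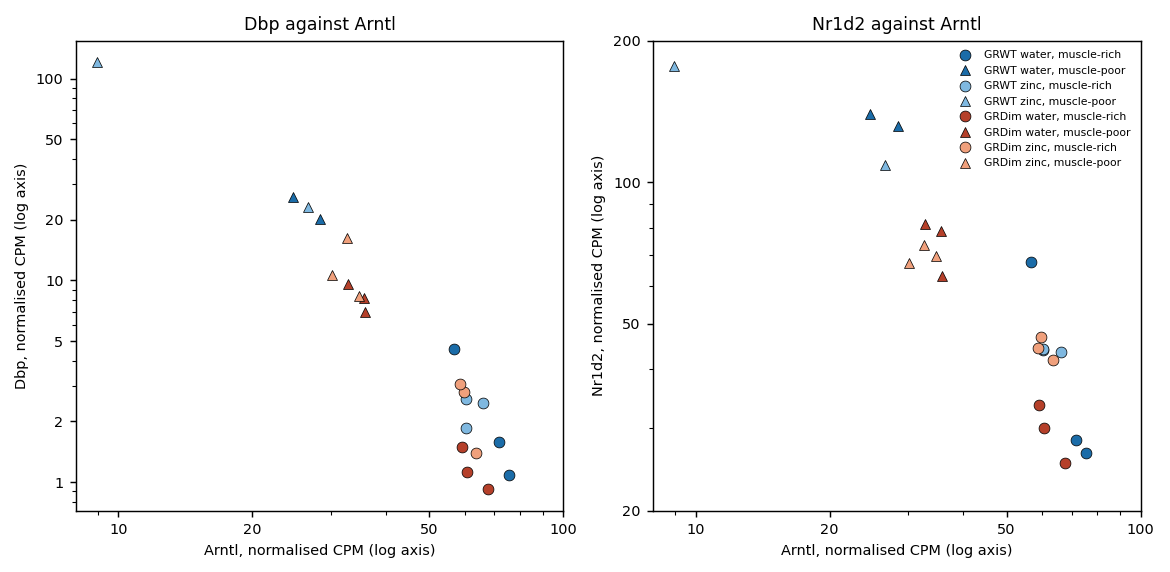
Normalised CPM of Dbp (left) and Nr1d2 (right) against Arntl, both on log axes, 1 point per library, with circles for muscle-rich and triangles for muscle-poor libraries and colours for the 4 conditions. Both genes are lower where Arntl is higher, and the point at 8.95 CPM of Arntl and 121 CPM of Dbp is GRWT zinc ileum replicate 3.

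Genes whose pattern was most like Arntl were ranked by Pearson's r of log2 CPM over the 22 libraries after the mean of each side was subtracted, among 12927 genes. Among the highest were Glipr2 (r = 0.98), Serpina10 (0.95), Slco3a1 (0.95) and Emp2 (0.95), and the lowest were Ube4b (-0.96), Susd6 (-0.96), Sra1 (-0.95), Slc5a12 (-0.95) and Akr1c12 (-0.95). These coefficients are a description, and 1 library weighs heavily in them. Without GRWT zinc ileum replicate 3 they ran from 0.62 for Serpina10 to 0.82 for Glipr2 and from -0.58 for Sra1 to -0.78 for Slc5a12.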

How the data were processed

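RNA was sequenced from 22 ileum and IEC samples as stranded single-end libraries. The authors mapped reads to mm10 with hisat 2.0.4 and ran featureCounts at the gene level, without multimapping reads, and the deposited values are raw counts for 54838 Ensembl genes. The annotation release and strand setting are not given in the sources used here. Identical column names left 2 libraries of GRDim mice on water, ileum, without a replicate number. Names and positions came from GENCODE vM21, in which 54809 identifiers were found.

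Counts were analysed in R 4.3.3 with edgeR 4.0.16 (TMM, filterByExpr, robust quasi-likelihood F tests, Benjamini-Hochberg over all genes tested, called at adjusted p under 0.05), fitted apart for muscle-rich (15947 genes tested) and muscle-poor libraries (13908) with 4 condition means, and for all libraries with the side added (16389). The SE was derived from the F statistic. Correlations used permutation with 100000 resamples. DESeq2 1.42.0, other scalings, filters, a fold threshold of 0.8, a replicate block and leaving out each library were tried. The code was tested on simulated data. All clock genes were named, and called genes of the other lists by the size of their fold change, at most 5 per list and comparison. These genes, the lists and the muscle split were chosen with earlier results of these data known. Some genes that met the naming rule are not reported here.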

Additional observations from a re-analysis of the deposited data

Results flagged for a closer look

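Over 40 sets of a clock gene in a condition, each of 5 or 6 libraries on both sides together, 2 held a library far from the others. The rule's chance rate of about 1 in 20 assumes 1 kind of library per set, so it does not apply to these mixed sets. Both flags were in GRWT mice on zinc and both were GRWT zinc ileum replicate 3, which read 195.0 CPM for Nr1d1 where the next highest library read 56.2 CPM, and 120.9 CPM for Dbp where the next read 23.0 CPM. The same library had 18.2 CPM of Fabp6. The part of its tissue content in these levels was not tested.

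The difference between zinc and water differed between GRWT and GRDim mice in muscle-rich libraries for Per2, by 1.222 log2 units, and for Cry2, by 0.716 log2 units, in edgeR's interaction test (adjusted p = 0.045 for both). In 1 fit of all libraries with a mean per condition and side, the values were 1.25 and 0.74 log2 units, and these adjusted p-values were 0.541 and 0.598. Leaving out 1 of the 12 libraries in turn ended the call for Per2 in 9 fits and for Cry2 in 10. The GRDim zinc libraries were all labelled ileum and the GRDim water libraries all IEC, while both GRWT groups held 1 ileum and 2 IEC. In the GRDim part of the interaction zinc and the label cannot be told apart, and no label term was fitted on this side.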

How the results depend on the processing

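Across alternatives that do not leave out a single library, 146 of 169 values of called clock genes kept their direction and call, 23 kept their direction and lost the call, and none reversed. Leaving out each library in turn, 411 of 460 kept the call, 49 lost it and none reversed. The counts of called clock genes moved as follows. Here and in the ranges below they are given without the share of all genes called. They describe the processing and are no result about clock genes. With library totals alone, zinc in GRWT over all libraries gave 1 and genotype on zinc over all libraries 0. That scaling moved the median of all genes by up to 0.312 log2 units, for genotype on zinc in muscle-poor libraries. With DESeq2, the muscle-rich interaction gave 1, muscle-poor zinc in GRWT 1, muscle-poor genotype on water 2 and on zinc 4, zinc in GRWT over all libraries 1, genotype on zinc over all libraries 3, and the side difference of the zinc effect in GRWT 1. Without a filter, muscle-poor genotype on zinc gave 1, and over all libraries genotype on water gave 2 and on zinc 0. With a minimum count of 50, genotype on zinc gave 2 in muscle-rich and 3 over all libraries. With a fold change beyond 0.8 required, muscle-rich zinc in GRDim gave 0, genotype on zinc 0 and the interaction 1, and over all libraries zinc in GRDim and genotype on zinc gave 0. With 1 fit of a mean per condition and side, muscle-rich zinc in GRWT, zinc in GRDim, genotype on zinc and interaction gave 0 each, and muscle-poor zinc in GRWT, zinc in GRDim, genotype on water and genotype on zinc gave 1, 2, 2 and 5. With the tissue label in place of the side, zinc in GRDim gave 0, genotype on water 1 and genotype on zinc 0 over all libraries. Without both libraries that stood apart, an alternative chosen after seeing the data, zinc in GRDim gave 2 and genotype on zinc 0 over all libraries. The cause was not tested. Leaving out the 2 libraries farthest from the median of Arntl took the adjusted calls among the correlations from 8 to 0, with fewer libraries.

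Replicate numbers did not pair the libraries, as deviations of same-numbered libraries correlated between -0.103 and 0.0629. With the replicate number as a block, muscle-rich zinc in GRDim gave 1, genotype on zinc 0 and the interaction 1, and genotype on zinc over all libraries 0.

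Leaving out 1 library at a time, the counts ranged from 0 to 4 (zinc in GRWT), 1 to 3 (zinc in GRDim), 3 to 5 (genotype on water), 1 to 2 (genotype on zinc) and 0 to 3 (interaction) in muscle-rich libraries. In muscle-poor libraries they ranged from 0 to 7, 0 to 2, 0 to 4, 0 to 7 and 0 to 5 in the same order. Over all libraries they ranged from 0 to 1, 1 to 2, 2 to 6, 0 to 3 and 0 to 1. The side contrast stayed at 10, and the side difference of the zinc effect ranged from 0 to 6 in GRWT. Genotype on zinc over all libraries changed in 17 of 22 such fits. Dbp at 14 counts was the least deeply counted value.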
